A study of Mus musculus with 4 samples.

Results

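The surface antigens that divide hematopoietic stem and progenitor cells by flow cytometry were followed here at the level of their transcripts. The 8 genes Kit, Ly6a, Slamf1, Cd48, Cd34, Flt3, Procr and Fgd5 were taken by symbol from the 32285 genes counted, and all 8 were detected in every group. The cells were LSK cells (Lineage-negative, Sca-1-positive, cKit-positive bone marrow cells), profiled by single-cell RNA-Seq. They came from Sin3B F/F mice, which carry loxP-flanked Sin3b alleles without deletion and are called wild type here, and from Sin3B F/F; Vav1-iCre mice, called knockout. The Vav1-iCre transgene deletes Sin3b in hematopoietic cells from embryonic development onwards, and all mice were C57BL/6. One library held untreated mice (homeostasis, male mice per the study's methods). The other held mice given a single intraperitoneal dose of 100 mg/kg 5-fluorouracil (5-FU), which kills dividing cells, 9 days before harvest. The sources used here give no ages for the mice. Each library mixed a pool of 2 mice per genotype, told apart by a hashtag antibody, which gave 4 pools and 1 pool per genotype and condition.

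With 1 pool per group there is no replicate check and no test between genotypes, and no p-value is given. Levels are in CPM, the UMIs (unique molecular identifiers, counted transcripts) of a gene scaled to one common total of gene UMIs per pool, with 95% exact Poisson intervals. All intervals cover counting error only and not differences between mice. The 2 libraries differ in condition and in the Cell Ranger version together, so levels were not compared between homeostasis and 5-FU. In summed pools, more cells with a transcript and more transcripts per cell cannot be told apart from a level alone. Shares of cells are given beside some of the levels.

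After filters, the homeostasis library kept 10184 wild-type and 4108 knockout cells, and the 5-FU library 4855 and 3307, with median depths of 6606.5 to 10935 UMIs per cell. Sin3b stood at 81.7 CPM in wild-type and 23.3 CPM in knockout cells at homeostasis, and at 112.7 and 15.1 CPM after 5-FU. The libraries shared 26 barcodes among kept cells. Markers of other cells were read too, with a summed 24.98 to 32.7 CPM for 5 B cell genes and 0.504 to 1.47 CPM for 5 T and NK cell genes over the 4 pools. Genes of mature neutrophils summed to 11.1 CPM in wild type and 52.5 CPM in knockout at homeostasis and to 5.59 and 4.36 CPM after 5-FU. Erythroid genes summed to 41.7 to 92.8 CPM, macrophage genes to 3.93 to 10.1 CPM, mast cell and basophil genes to 20.5 to 41.9 CPM and stromal genes to 2.45 to 13.8 CPM, and their part in the genotype ratios was not tested. Of the cells called, 26.3% at homeostasis and 25.8% after 5-FU carried no hashtag call and were left out.

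Kit encodes the stem cell factor receptor and Flt3 the FLT3 ligand receptor, and both are receptor tyrosine kinases. Ly6a encodes the GPI-anchored protein Sca-1. Slamf1 (CD150) and Cd48 are SLAM family members with neighbouring genes, and their antibodies separate stem cells, which carry CD150 without CD48, from multipotent progenitors. Cd34 encodes a sialomucin that is low on adult mouse long-term stem cells, and Procr the endothelial protein C receptor, which is high on them. Fgd5 is not a surface antigen. It encodes a guanine nucleotide exchange factor inside the cell and is known as a reporter gene for stem cells, so no antibody to its product is used in such sorts. In the study's own flow cytometry gates, LT-HSCs (long-term stem cells) are Flk2-negative, CD48-negative and CD150-positive within LSK cells, where Flk2 is the product of Flt3. ST-HSCs (short-term stem cells) lack all 3 antigens. The multipotent progenitors MPP2, MPP3 and MPP4 carry CD48, with CD150, with neither of the others, or with Flk2. The sort itself had selected the Kit and Ly6a proteins.

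Promoter sequence is shown for 2 gene pairs whose values are contrasted below. Between stem-like and other cells, Slamf1 differed in direction from its neighbour Cd48, and Procr and Fgd5 had the same direction. Each window is the 250 bases before the start in RefSeq (GRCm38.p6), which listed 7 of the 8 genes and not Ly6a. The windows are chr1:171766882-171767131 for Slamf1, chr1:171681742-171681991 for Cd48, chr2:155750967-155751216 for Procr and chr6:91978715-91978964 for Fgd5, all on the plus strand. Capitals mark matches on either strand to 4 motifs, which were searched as exact letters. These were AGATAA, a core of the sites that GATA factors bind, and TGTGGT, known from sites bound by RUNX factors. The others were CCGGAA, from sites of the ETS family, and the E-box CAGCTG.
Slamf1: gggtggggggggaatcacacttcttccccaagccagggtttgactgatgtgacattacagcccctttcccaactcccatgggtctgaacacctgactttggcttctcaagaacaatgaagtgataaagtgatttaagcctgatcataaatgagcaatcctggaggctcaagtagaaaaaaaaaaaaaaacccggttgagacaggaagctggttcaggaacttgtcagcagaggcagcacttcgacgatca
Cd48: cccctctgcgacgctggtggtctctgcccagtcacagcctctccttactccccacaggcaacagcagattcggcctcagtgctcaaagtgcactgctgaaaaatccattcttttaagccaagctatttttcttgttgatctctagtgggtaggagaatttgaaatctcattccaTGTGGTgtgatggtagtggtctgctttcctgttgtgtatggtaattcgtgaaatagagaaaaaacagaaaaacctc
Procr: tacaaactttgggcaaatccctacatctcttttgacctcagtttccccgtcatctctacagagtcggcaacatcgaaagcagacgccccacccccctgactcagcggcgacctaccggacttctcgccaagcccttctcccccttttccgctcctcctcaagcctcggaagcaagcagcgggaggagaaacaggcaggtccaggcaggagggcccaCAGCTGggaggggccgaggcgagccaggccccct
Fgd5: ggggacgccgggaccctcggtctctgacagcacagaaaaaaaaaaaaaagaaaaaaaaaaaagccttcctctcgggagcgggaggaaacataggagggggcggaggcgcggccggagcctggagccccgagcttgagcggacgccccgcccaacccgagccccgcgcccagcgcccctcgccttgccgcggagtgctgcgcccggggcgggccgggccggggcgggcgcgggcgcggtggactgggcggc
The Slamf1 and Cd48 windows were 47.2% and 46.0% G or C, against a median of 52% over 27025 promoters, and those of Procr and Fgd5 were 61.6% and 71.6%. Cd48 held 1 match to the RUNX motif and Procr 1 match to the E-box, and the other 5 listed members held none of the 4 motifs. Over all promoters, 10.3% held the GATA motif, 14.2% the RUNX motif, 12.2% the ETS motif and 12.8% the E-box. A match is a run of letters and no evidence of binding.

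To ask where each gene was read within LSK cells, cells were clustered in each library without the 8 genes, and clusters were named from markers that are not among them. The LT-HSC-like class had all 10 of its markers (among them Mecom, Hlf and Hoxb5) raised in each of its clusters, 2 per library. In the homeostasis library 1202 wild-type and 1245 knockout cells belonged to it, in the 5-FU library 305 and 782. Neutrophil-primed, megakaryocyte-erythroid-primed and lymphoid-primed classes were named from their own markers, and 50.02% to 71.0% of cells in a pool stayed unnamed. At homeostasis the genotypes placed their stem-like cells in different clusters. There, 10.4% of the wild-type pool but 0.682% of the knockout pool lay in a cluster led by Chrm3, Runx1t1 and Meg3, while a cluster led by Pdgfc, Kcnb2 and Dnm3 took 1.37% and 29.6%. After 5-FU, a cluster led by Cyp26b1 and Cldn5 held most LT-HSC-like cells of both genotypes, 230 of 305 and 682 of 782, and one led by Neo1 and Inhba the rest. Since clusters are defined by the same cells, ratios between classes are descriptions.

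Kit, Ly6a, Slamf1, Procr and Fgd5 were higher in LT-HSC-like than in other cells in every pool, though the interval of Ly6a in knockout cells after 5-FU, a log2 ratio of 0.10 (-0.0014 to 0.19), reached 0. Procr and Fgd5 were higher by at least 1.5-fold, with intervals leaving out 0, in all 4. Procr was at 96.5 and 113.3 CPM in wild-type and knockout LT-HSC-like cells at homeostasis and 153.4 and 174.5 CPM after 5-FU, against 28.7, 36.6, 50.6 and 46.0 CPM in the other cells of the same pools. Its log2 ratio was 1.73 ± 0.15 (SD, n = 4 pools). The 4 pools are 2 genotypes in 2 conditions, so this SD and those below are not a spread of replicates. Fgd5 was at 54.1, 57.8, 42.6 and 47.5 CPM in LT-HSC-like cells and at 17.4, 14.5, 13.6 and 9.66 CPM in other cells, in the same order of pools, a log2 ratio of 1.90 ± 0.31. In all 4 pools both genes had their highest level in the LT-HSC-like class, with intervals clear of the next class. Both are also genes of endothelial cells. The 7 endothelial markers summed to 64.5 to 77.2 CPM in LT-HSC-like cells and 36.5 to 43.3 CPM in all kept cells. In LT-HSC-like cells Sox17 was at 0 in every pool and Cdh5 in knockout after 5-FU. All other markers of the list had UMIs in the LT-HSC-like cells of every pool. Over all kept cells Sox17 was at 0 too, except in wild type after 5-FU. The part of endothelial genes in the result was not tested.

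Cd48, Cd34 and Flt3 were lower in LT-HSC-like cells in every pool. Cd48 had the widest gap, at 17.8 and 9.48 CPM in LT-HSC-like against 118.4 and 66.4 CPM in other cells for wild type and knockout at homeostasis. After 5-FU it stood at 3.74 CPM (8 UMIs) and 2.63 CPM (17 UMIs) against 117.2 and 84.5 CPM, and its log2 ratio over the pools was -3.84 ± 1.25. Cd34 was at 173.4, 109.2, 94.03 and 72.8 CPM in LT-HSC-like cells, a log2 ratio of -1.39 ± 0.31. Flt3 was at 210.3, 128.8, 30.9 and 15.5 CPM, a log2 ratio of -1.46 ± 0.42. In each pool the LT-HSC-like level of all 3 genes lay below that of the other cells, with intervals apart. Among 13 settings the mean ratio of Cd34 came as close to 0 as -0.72 and that of Flt3 as -0.43, and 5 settings left 1 of the 3 genes called in all pools. Over all 11658 genes with at least 50 UMIs in each pool, 6.37% were at least 1.5-fold higher in LT-HSC-like cells in all 4 pools with intervals leaving out 0, and 5.1% lower, beside 2 and 3 of the 8 members. The median log2 ratio was 0.56 over the members and 0.08 over all genes.

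**Figure D1:**
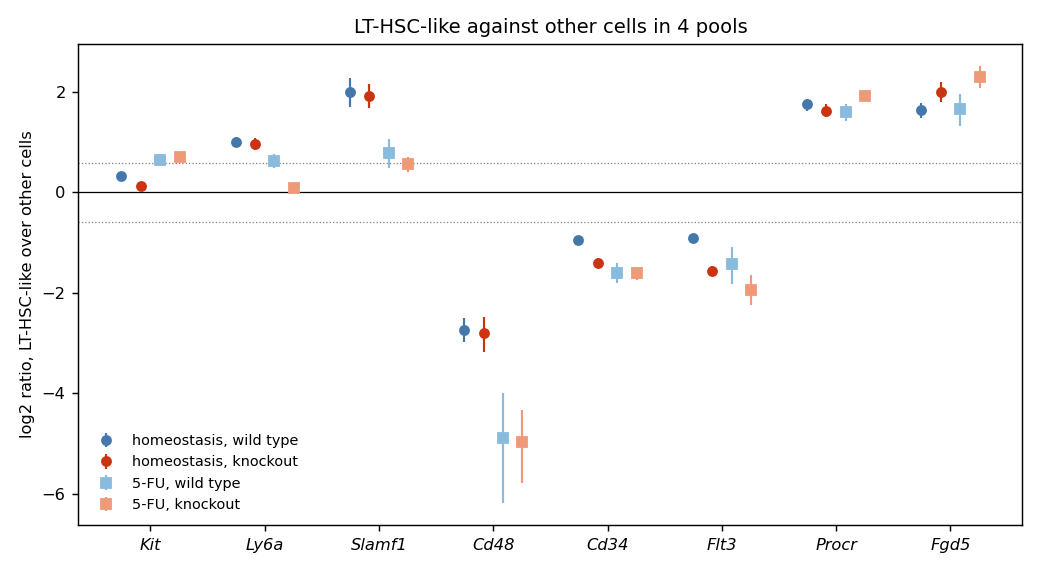
Log2 ratio of each gene's level in LT-HSC-like over other cells (vertical axis, log2 units) in the 4 pools, with 95% intervals of counting error and dotted lines at 1.5-fold. Procr and Fgd5 sit above the upper line in all pools, Cd48, Cd34 and Flt3 below the lower line, and Ly6a and Slamf1 lie closer to 0 after 5-FU than at homeostasis.

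Slamf1, the gene of the antigen that marks LT-HSCs in the study's flow cytometry gates, was not called by this rule. Its log2 ratios were 2.00 and 1.92 in wild type and knockout at homeostasis but 0.79 and 0.56 after 5-FU, where the last fell short of 1.5-fold. In LT-HSC-like cells it was at 18.2 and 40.1 CPM at homeostasis and 50.1 and 65.0 CPM after 5-FU. Its highest class was the megakaryocyte-erythroid-primed one in every pool, at 36.0, 53.1, 93.4 and 100.5 CPM, though in knockout cells at homeostasis the intervals of these 2 classes overlapped. The 2 LT-HSC-like clusters after 5-FU differed. With both genotypes together, Slamf1 was at 109.0 CPM in the one led by Neo1 and Inhba (175 cells) and 49.4 CPM in the other. The megakaryocyte-erythroid-primed cluster had 97.3 CPM. In lymphoid-primed cells Slamf1 was near absent, with 9, 5, 10 and 3 UMIs in all. At 4000 UMIs per cell, with cells of lower depth left out, Slamf1 UMIs were found in 6.38%, 12.8%, 15.6% and 18.95% of LT-HSC-like cells and in at most 0.855% of lymphoid-primed cells. Most LT-HSC-like cells thus had no Slamf1 UMI at this depth.

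Kit and Ly6a, whose proteins define the LSK sort, were higher in LT-HSC-like cells but by less than 1.5-fold in at least 1 pool each. In LT-HSC-like cells Kit was at 467.5 and 377.4 CPM in wild type and knockout at homeostasis and at 349.9 and 288.6 CPM after 5-FU, and its log2 ratio against other cells was 0.45 ± 0.27. It was lowest in lymphoid-primed cells of wild type at homeostasis (288.5 CPM) and in neutrophil-primed cells after 5-FU (150.9 and 117.9 CPM). Ly6a was at 138.8, 127.8, 206.8 and 162.5 CPM in LT-HSC-like cells, with log2 ratios of 1.01, 0.96, 0.63 and 0.10 (0.67 ± 0.42). In every pool it was lowest in megakaryocyte-erythroid-primed cells, at 24.5, 16.7, 26.1 and 35.1 CPM. Ly6a belongs to a family of similar genes, and reads shared with its paralogs cannot be checked in a count table. By class, its highest level was in LT-HSC-like cells in 3 pools and in neutrophil-primed cells of the knockout after 5-FU. Some unnamed clusters held more Ly6a, with both genotypes together. After 5-FU the one led by Wfdc17, Meg3 and Socs3 (1591 cells) was at 270.4 CPM, against 165.6 and 205.8 CPM in the LT-HSC-like clusters. At homeostasis an unnamed cluster of 56 cells was at 217.3 CPM, against 137.7 and 129.9 CPM.

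Cd34 and Flt3 had their highest class in common. The lymphoid-primed class was 1 cluster per library, led by Gria2, Gm19331 and Slc24a2 at homeostasis and by the B lineage genes Igkc, Ebf1 and Cd79a after 5-FU, and a homeostasis cluster led by Ebf1 and Vpreb3 stayed unnamed. In lymphoid-primed cells Flt3 reached 971.4 and 910.1 CPM at homeostasis and 335.5 and 365.5 CPM after 5-FU, and Cd34 402.7, 375.3, 462.2 and 486.0 CPM. Flt3 was lowest in megakaryocyte-erythroid-primed cells, at 51.0, 45.9, 5.19 and 4.46 CPM. By class, Cd48 was highest in neutrophil-primed cells, at 170.5, 100.1, 278.9 and 225.6 CPM. At homeostasis that class was 1 cluster with 5 of 8 neutrophil markers raised, whose leading genes were DNA replication genes such as Ung, Uhrf1 and E2f1 beside Elane, and the part of cell division in its Cd48 level was not tested. In knockout cells at homeostasis the neutrophil-primed and lymphoid-primed intervals of Cd48 overlapped. An unnamed homeostasis cluster of 1058 cells had Cd48 among its leading genes. With both genotypes together, it had 181.5 CPM of Cd48, against 155.6 CPM in the neutrophil-primed cluster. Its Cd34 level was 401.4 CPM, against 398.6 CPM in the lymphoid-primed cluster.

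**Figure D2:**
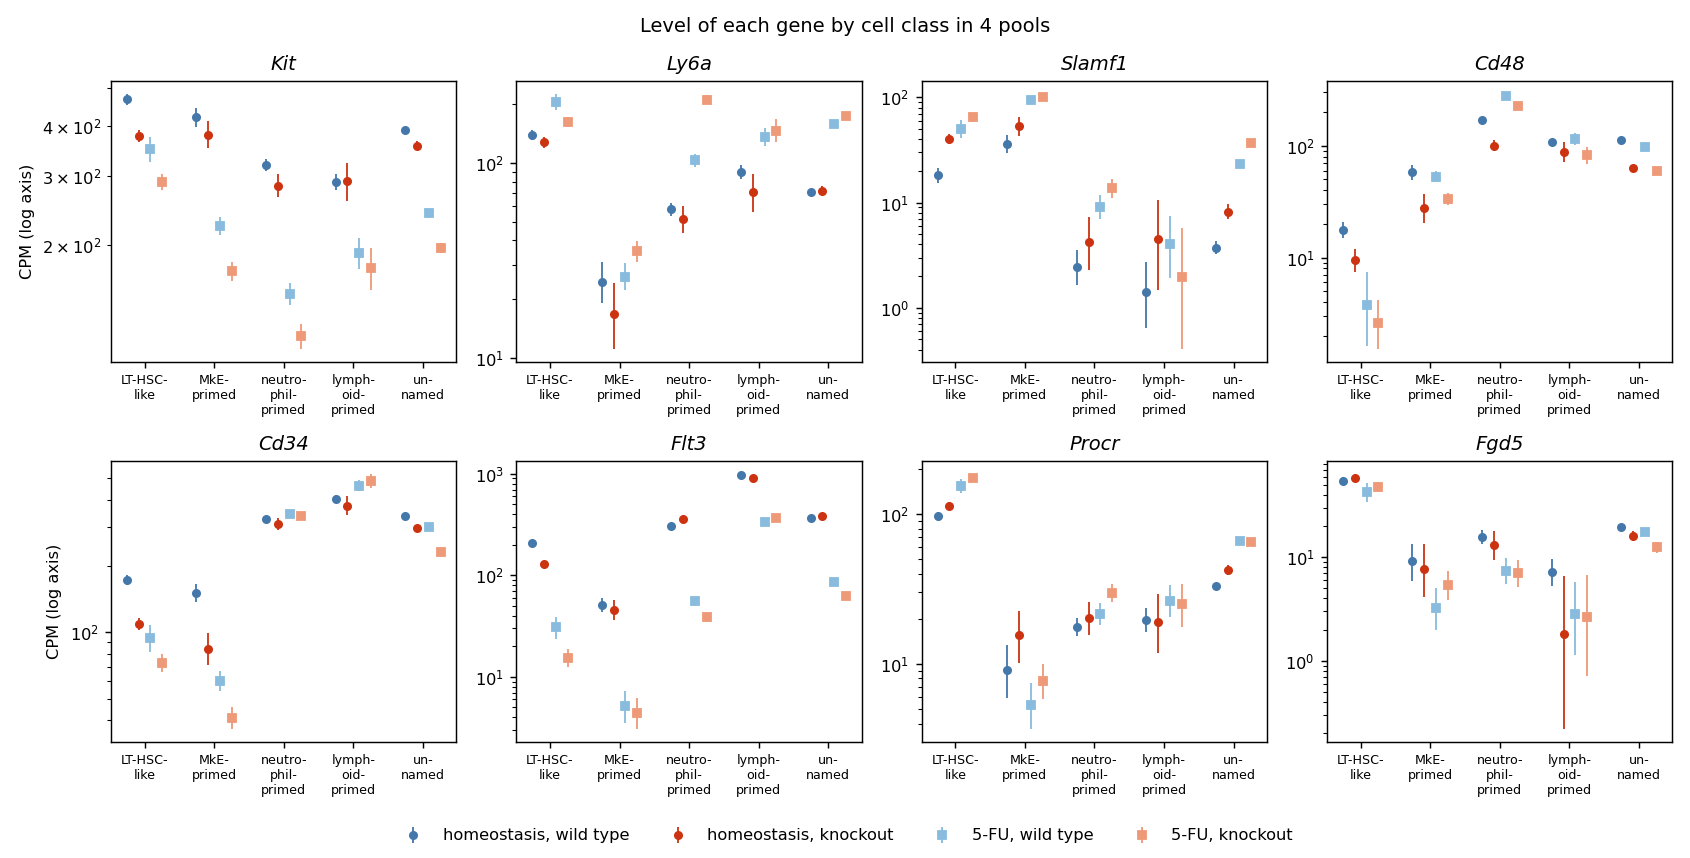
Level of each gene in CPM (log axis) by cell class in the 4 pools, with 95% Poisson intervals. Among these classes, Flt3 and Cd34 are highest in lymphoid-primed cells and Cd48 in neutrophil-primed cells. Slamf1 is highest in megakaryocyte-erythroid-primed (MkE-primed) cells and Procr and Fgd5 in LT-HSC-like cells. The unnamed class joins several clusters, of which some lie above its level.

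Free RNA can place UMIs in cells that do not transcribe a gene, and the unfiltered homeostasis matrix allowed its content to be read. Barcodes with at most 100 UMIs held Kit at 230.2 CPM, Flt3 at 234.7 CPM, Cd34 at 209.8 CPM, Cd48 at 80.1 CPM and Slamf1 at 8.31 CPM. Ly6a was at 98.97 CPM in them, Procr at 45.2 CPM and Fgd5 at 19.8 CPM. These 3 values lie above the levels in cells other than LT-HSC-like at homeostasis, where wild type and knockout had 69.0 and 65.6 CPM of Ly6a, 28.7 and 36.6 CPM of Procr, and 17.4 and 14.5 CPM of Fgd5. Slamf1 in these barcodes also lay above its level in such wild-type cells (4.57 CPM) and in all kept wild-type cells (5.91 CPM). Cd48 lay above its level in such knockout cells (66.4 CPM) and in all kept knockout cells (52.5 CPM). Cd34 and Flt3 lay above their LT-HSC-like levels at homeostasis, 173.4 and 109.2 CPM and 210.3 and 128.8 CPM. The part of free RNA in those levels, in the genotype ratios and in co-detection was not tested. Cd48 UMIs were found in 5.10% and 3.48% of LT-HSC-like cells at homeostasis, the lowest share of any class, and such a share was not read as expression. Flt3 UMIs were found in 40.2% of wild-type LT-HSC-like cells, against 15.2% of megakaryocyte-erythroid-primed cells at the same depth, with median depths before thinning of 5823 and 7469.5 UMIs. Before thinning, 50.2% and 27.6% of these cells had one.

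To compare genotypes, UMIs of all kept cells were summed per pool. Knockout pools had more Slamf1 and less Cd48 in both libraries. Slamf1 rose from 5.91 CPM (5.40 to 6.46) in wild type to 17.8 CPM (16.4 to 19.4) in knockout at homeostasis, and from 29.8 CPM to 47.2 CPM after 5-FU. These are log2 ratios of 1.59 (1.42 to 1.77) and 0.66 (0.57 to 0.76). Cd48 went from 108.4 CPM to 52.5 CPM at homeostasis and from 112.5 CPM to 72.4 CPM after 5-FU, log2 ratios of -1.05 (-1.12 to -0.97) and -0.64 (-0.70 to -0.57). Among all genes with at least 50 UMIs over both pools, 98.8% had a smaller absolute ratio than Slamf1 at homeostasis and 96.6% than Cd48.

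Procr and Flt3 were each at least 1.5-fold apart in 1 library. Procr was at 35.4 CPM in wild type and 55.4 CPM in knockout at homeostasis, a log2 ratio of 0.65 (0.56 to 0.73), but at 54.8 and 65.1 CPM after 5-FU, a ratio of 0.25 (0.17 to 0.32). Flt3 was at 376.4 and 319.5 CPM at homeostasis, a ratio of -0.24 (-0.27 to -0.20), and at 81.8 and 52.8 CPM after 5-FU, a ratio of -0.63 (-0.71 to -0.56). Cd34 was lower in knockout in both libraries without reaching 1.5-fold, at -0.38 (-0.41 to -0.34) and -0.47 (-0.50 to -0.43). Kit, Ly6a and Fgd5 had log2 ratios from -0.25 (Kit after 5-FU) to 0.25 (Fgd5 at homeostasis). At least 1.5-fold higher with an interval leaving out 0 were 2 of 8 members at homeostasis, beside 4.91% of 15509 genes, and 1 after 5-FU, beside 3.36% of 13510 genes. Lower were 1 of 8 at homeostasis, beside 4.37% of genes, and 2 after 5-FU, beside 4.39%. The median log2 ratio of the members was -0.01 and -0.10, and that of all genes 0.01 and -0.02. The pools differed in their cluster makeup. When both genotypes were given the same cluster shares, Slamf1 fell to 0.78 at homeostasis and 0.41 after 5-FU, Cd48 stood at -0.65 and -0.48, and Procr at 0.11 and 0.14. Flt3 after 5-FU stood at -0.20, and no member was then 1.5-fold apart in that library. Under that weighting Ly6a, Flt3 and Fgd5 changed sign at homeostasis, to -0.24, 0.05 and -0.17.

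**Figure D3:**
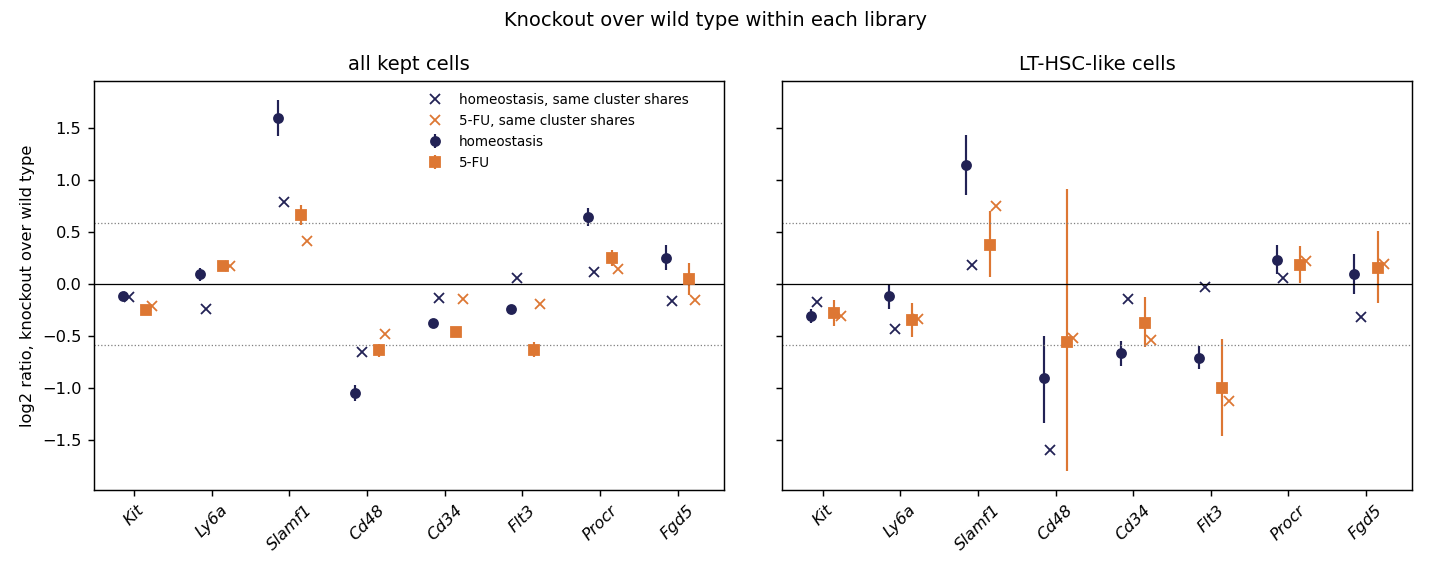
Log2 ratio of knockout over wild type (vertical axis, log2 units) for all kept cells and for LT-HSC-like cells in each library, with 95% intervals of counting error and dotted lines at 1.5-fold. Crosses give the ratio with both genotypes weighted to the same cluster shares, at which Slamf1 and Cd48 of all kept cells lie closer to 0.

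Within cell classes, Cd48 kept its direction. Its ratio was below 0 in all 5 classes of both libraries, the unnamed cells counted as a class, and the interval left out 0 in 4 of 5 each time. The values ran from -1.05 in megakaryocyte-erythroid-primed cells to -0.27 in lymphoid-primed cells at homeostasis, and from -0.73 in unnamed to -0.31 in neutrophil-primed cells after 5-FU. Unnamed cells lay in different clusters by genotype, such as one after 5-FU with Cd48 among its leading genes that held 352 wild-type and 33 knockout cells. Slamf1 was above 0 in 5 of 5 classes at homeostasis with 3 of 5 intervals above 0, and in 4 of 5 after 5-FU, again with 3 intervals above 0, where lymphoid-primed cells held 10 UMIs in wild type and 3 in knockout. Cd34 was below 0 in 5 and 4 classes, with its largest differences in megakaryocyte-erythroid-primed cells at -0.84 (-1.13 to -0.56) and -0.56 (-0.79 to -0.34). Ly6a differed between classes. In neutrophil-primed cells after 5-FU it was at 103.6 CPM in wild type and 211.2 CPM in knockout, a log2 ratio of 1.03 (0.89 to 1.16), while its ratio over all kept cells was 0.17. The same class at homeostasis gave -0.17 (-0.43 to 0.08), and the difference between libraries was not tested. Outside LT-HSC-like cells, Fgd5 was lower in knockout, with -0.27 (-0.44 to -0.09) in the homeostasis library and -0.49 (-0.68 to -0.30) in the other. Over all kept cells it had 0.25 and 0.05. Procr outside that class had 0.35 (0.24 to 0.47) and -0.14 (-0.22 to -0.05), in the same order. Flt3 at homeostasis was higher in neutrophil-primed knockout cells, by 0.22 (0.12 to 0.31), and in unnamed ones, by 0.08 (0.04 to 0.12). Its ratio was below 0 in 3 classes.

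In LT-HSC-like cells at homeostasis, Slamf1 was at 18.2 CPM (149 UMIs) in wild type and 40.1 CPM (313 UMIs) in knockout, a log2 ratio of 1.14 (0.86 to 1.43). It was 0.18 with equal cluster shares, 0.29 without removal of lineage gene cells and 0.40 at a finer clustering (Leiden resolution 2). Cd48, Cd34 and Flt3 were lower by at least 1.5-fold, with ratios of -0.90 (-1.33 to -0.50), -0.67 (-0.79 to -0.54) and -0.71 (-0.82 to -0.59). These values set mostly the Pdgfc, Kcnb2 and Dnm3 cluster of the knockout against the Chrm3, Runx1t1 and Meg3 cluster of the wild type. In both genotypes LT-HSC-like levels of Cd48, Cd34 and Flt3 lay below 80.1, 209.8 and 234.7 CPM, the levels in barcodes with at most 100 UMIs. The part of free RNA in the ratios of LT-HSC-like cells was not tested. Procr and Fgd5, whose highest class this was, differed by 0.23 (0.09 to 0.37) and 0.10 (-0.10 to 0.29). After 5-FU, Flt3 was the member apart by 1.5-fold, at 30.9 CPM (66 UMIs) and 15.5 CPM (100 UMIs), a ratio of -1.001 (-1.46 to -0.53). Slamf1 had a ratio of 0.37 (0.07 to 0.70), and Cd48 had too few UMIs to be counted. These values moved with the processing, from 0.20 to 1.53 for Slamf1, from -1.65 to -0.20 for Cd34 and from -3.21 to -0.74 for Flt3 over 15 settings, with up to 4 members apart. That last count has no share over all genes at the same settings beside it, and the shares that follow are for the main setting. Higher were 1 of 8 members at homeostasis, beside 2.42% of 11998 genes, and 0 of 7 after 5-FU, beside 2.15% of 10115 genes. Lower were 3 of 8, beside 4.27%, and 1 of 7, beside 2.09%. Without the removal of cells with lineage genes the homeostasis clusters changed, and the ratios of Cd48, Cd34 and Flt3 became 0.0069, 0.11 and 0.28. That of Flt3 was also above 0, at 0.25, at the finer clustering.

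The 3 antigens of the study's gates were then read together in cells thinned to 4000 UMIs. A transcript without a UMI is not an antigen that is absent. A Slamf1 UMI with neither Cd48 nor Flt3, the transcript counterpart of the LT-HSC gate, was found at homeostasis in 114 of 9700 cells (1.18%) of the wild type, against 194 of 3880 (5.00%) in the knockout. The difference was 3.82 percentage points (Newcombe interval 3.14 to 4.58). After 5-FU it was found in 347 of 4343 (7.99%) and 384 of 3137 (12.2%), a difference of 4.25 points (2.86 to 5.67). Without thinning, wild type and knockout had 1.45% and 5.74% such cells in the homeostasis library and 10.9% and 22.6% in the other. Cells with none of the 3 transcripts made up 26.2% of wild type and 36.0% of knockout at homeostasis, and 49.2% and 58.7% in the other library. The counterparts of MPP3 (Cd48 alone) and MPP4 (Cd48 and Flt3) were smaller in knockout cells in both libraries. MPP4 differed by -9.60 points (-10.8 to -8.35) at homeostasis and -4.08 points (-5.04 to -3.12) after 5-FU, and MPP3 by -4.06 points (-4.92 to -3.14) and -5.52 points (-7.03 to -3.98). The MPP2 counterpart (Slamf1 and Cd48) held 11, 5, 60 and 24 cells. Flt3 without Cd48 or Slamf1, which corresponds to none of the gates, was the largest group at homeostasis, at 43.4% in the wild-type and 42.9% in the knockout pool.

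**Figure D4:**
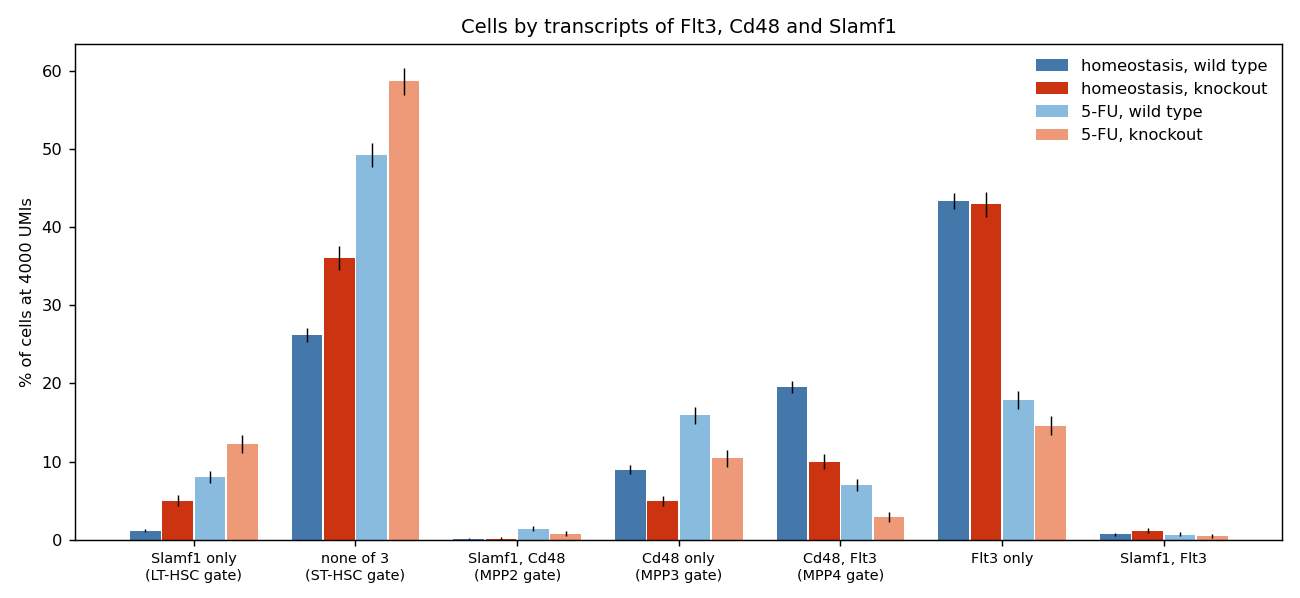
Share of cells at 4000 UMIs (vertical axis, %) by which of Slamf1, Cd48 and Flt3 had a UMI, in the 4 pools, with exact 95% binomial intervals, where the last group holds cells with Slamf1 and Flt3 with or without Cd48. The knockout bars are higher for Slamf1 alone and for none of the 3, and lower for Cd48 alone and for Cd48 with Flt3, in both libraries.

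These transcript gates and the clusters named from other genes overlapped in part. Of cells in the LT-HSC counterpart, 46.5% of wild type and 61.9% of knockout lay in LT-HSC-like clusters at homeostasis, and 11.5% and 36.7% after 5-FU. Read the other way, the gate held 4.83% and 10.7% of LT-HSC-like cells at homeostasis and 15.3% and 18.4% after 5-FU. More LT-HSC-like cells fell in the group with none of the 3 transcripts, at 53.3%, 58.4%, 72.1% and 75.03%. Inside the LT-HSC counterpart Procr was at 57.0, 73.5, 72.8 and 93.8 CPM, in the MPP4 counterpart at 25.9, 31.8, 50.5 and 41.7 CPM, and in cells with none of the 3 transcripts at 49.7, 79.7, 74.9 and 100.5 CPM, so that the level with Slamf1 alone was the highest of these in 1 of 4 pools. Cd34 was at 146.9, 79.9, 98.0 and 72.9 CPM in the LT-HSC counterpart, below its 367.9, 377.9, 440.4 and 450.0 CPM in the MPP4 counterpart.

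Co-detection showed which transcripts occurred in the same cells. For each of 28 pairs, the share of cells with a UMI of both genes was divided by the product of the single shares. The ratio was above 1 in all 4 pools for 7 pairs and below 1 in all 4 for 10, counted by side alone, with no interval and no other gene pairs set beside them. Procr with Fgd5 had ratios of 1.69, 1.62, 1.90 and 1.81 in wild type and knockout at homeostasis and after 5-FU, from 104 to 175 cells with both. Slamf1 with Fgd5 had 1.98, 1.74, 1.14 and 1.52, while Slamf1 with Procr had 1.13, 1.25, 0.97 and 1.04 and so no common side. Flt3 with Cd34 had 1.07, 1.21, 1.28 and 1.66.

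The neighbours Slamf1 and Cd48 seldom met in a cell. Both were found in 27 of 9700, 6 of 3880, 68 of 4343 and 26 of 3137 cells, ratios of 0.49, 0.16, 0.64 and 0.44. Slamf1 with Flt3 had 0.54, 0.34, 0.26 and 0.20, and Slamf1 with Cd34 had 0.69, 0.50, 0.54 and 0.49. Kit with Ly6a, the pair selected by the sort, had ratios between 0.952 and 0.997, close to the product. Correlations of log-normalized values across cells were weak, from -0.20 to 0.33, with the highest for Cd34 with Flt3. Within LT-HSC-like cells alone, 5 pairs were above and 7 below 1 in all pools. Procr with Fgd5 had 1.24, 1.04, 1.37 and 1.12 there, in each pool less than over all cells.

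**Figure D5:**
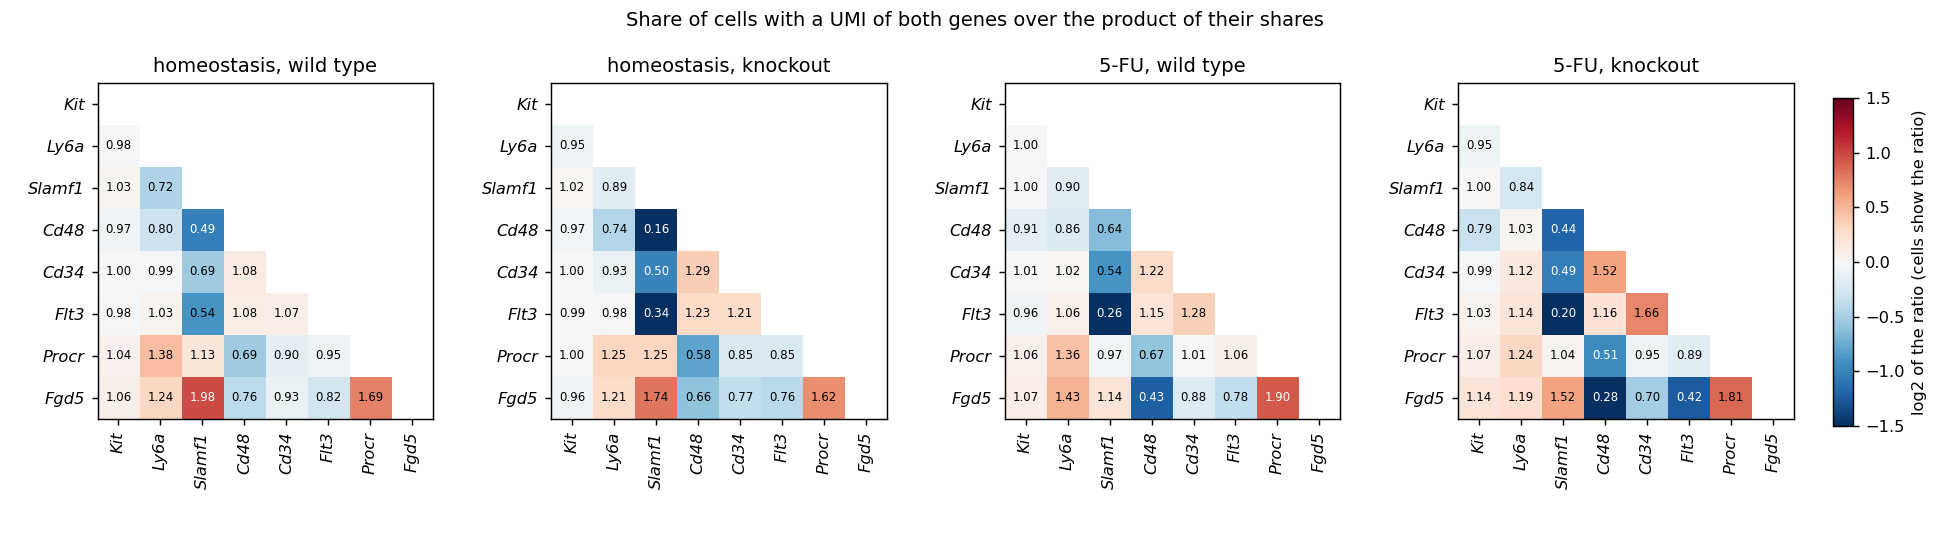
Share of cells with a UMI of both genes divided by the product of the shares of each, for 28 pairs in the 4 pools at 4000 UMIs, with colour on a log2 scale. Procr with Fgd5 is above 1 and Slamf1 with Cd48, Cd34 or Flt3 below 1 in every pool.

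Levels were also compared across clusters. Levels summed by pool and cluster gave 45 points of at least 50 cells, centred within pools, which share libraries and depth within a pool. Pearson's r, given as a description, was 0.91 for Procr with Fgd5 and 0.86 for Cd34 with Flt3, and it was -0.89 for Slamf1 with Cd34 and -0.85 with Flt3. Slamf1 with Cd48 had -0.55 and Slamf1 with Fgd5 0.41, while Cd48 had -0.72 with Fgd5, -0.69 with Procr and -0.69 with Kit. Among 7165 genes with a mean of at least 20 CPM, those most like Flt3 were Satb1 (r = 0.97), 2610307P16Rik (0.93) and Il6ra (0.93). Those most like Procr were Gimap5 (0.95), Gimap8 (0.94) and the stem cell transcription factor Hlf (0.94), which is also among the LT-HSC markers. Fgd5 was most like Prex2 (0.92), Cpne8 (0.91) and Procr itself, and Slamf1 most like Clca3a1 (0.94), Cd55 (0.91) and Nadk2 (0.91). Cd34 was most like Tespa1 (0.94), Cd244a (0.91) and Cd52 (0.90), and Cd48 most like Bex6 (0.91), Actr3 (0.89) and Fam117a (0.89). The closest genes to Kit were Kmt2c (0.89), Hook3 (0.89) and Nwd1 (0.89), and to Ly6a Ifitm1 (0.87), Ltb (0.85) and 1810073O08Rik (0.85).

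Of 30 other surface genes of stem cells and progenitors, 28 could be counted in all pools and 7 were at least 1.5-fold higher in LT-HSC-like cells in all 4, beside 6.37% of all genes, with mean log2 ratios of 3.21 for Neo1, 1.95 for Cd38, 1.62 for the integrin Itgb3, 1.53 for Jam3 and 1.15 for Alcam among them. Lower were 3, beside 5.1% of all genes, among them the SLAM family member Cd244a at -2.85 and the macrophage colony-stimulating factor receptor Csf1r, which had 0 UMIs in LT-HSC-like cells after 5-FU. Between genotypes, 5 of 29 were higher and 1 lower (Il7r, also one of the genes used to remove lineage cells) in knockout cells at homeostasis, beside the 4.91% and 4.37% of all genes, and 2 of 28 higher and 2 lower after 5-FU, beside 3.36% and 4.39%. Cd38 and Jam3 were higher in both. Cd38 had log2 ratios of 1.02 (0.67 to 1.36) and 1.08 (0.84 to 1.32), and Jam3 1.10 (0.88 to 1.33) and 1.08 (0.84 to 1.32). Within LT-HSC-like cells, which took a larger share of the knockout pools, neither was apart by 1.5-fold, with Cd38 at 0.38 (-0.14 to 0.91) and 0.037 (-0.49 to 0.62) and Jam3 at 0.46 (0.095 to 0.84) and 0.37 (-0.23 to 1.06). Ptprc, which encodes the CD45 protein that the hashtag antibodies bind, had ratios of -0.06 (-0.10 to -0.03) and -0.30 (-0.34 to -0.27).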

How the data were processed

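The authors deposited counts of UMIs per gene and barcode, made with Cell Ranger (Cell Ranger 4 and 6.0.1 per the file headers). The submitters' processing notes name mm9, and no source used here gives alignment settings. The rows of both matrices were named with the 5-FU feature list. Log counts of the matrices correlated at 0.92 in that order and at 0.39 or less when shifted.

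Cells at homeostasis were barcodes with at least 2921 UMIs. Hashtags were called with HTODemux (Seurat 5.3.0, quantile 0.99). The labels give no genotype, and the study's methods assign B0096 to wild-type and B0157 to knockout cells. Cells with both tags were removed, so doublets within a genotype remain. The top and bottom 2% of UMIs, genes and mitochondrial share were removed, as were cells in which 9 lineage genes summed to 2 or more UMIs. The study also removed cells with lineage-primed stem cell genes, which was not repeated.

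Clusters (scanpy 1.11.5, 2000 variable genes, 30 components, 20 neighbours, Leiden resolution 1) left out the 8 genes, 30 other surface genes, cell cycle and sex-linked genes and Sin3b. A class needed over 50% of its markers, and at least 3, raised 1.5-fold, with no second class over 50%. A cluster stayed unnamed where another marker list held at least as many of its leading genes as the list of the class. B cell genes did not count against the lymphoid-primed class. Clusters of low depth without a marker of the class among their leading genes stayed unnamed as well. These rules were settled after clusters had been seen. Ratios are of summed counts with 0.5 added, with exact conditional binomial intervals. A gene counted as apart needed 1.5-fold, an interval leaving out 0 and 50 UMIs. The members and gene lists were chosen with earlier results of these data known. Named were the members, for each the 3 genes of highest correlation, Ptprc, and other surface genes called in both libraries or among the 6 largest in all 4 pools per direction, of which some are not reported here. Depth sets the precision of each value through the counting intervals. Alternatives are described in the closing section.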

Additional observations from a re-analysis of the deposited data

How the results depend on the processing

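LT-HSC-like and other cells were set against each other within each pool. Between genotypes no paired analysis was possible, because each comparison set 1 pool against 1 pool within a library, and the labels number no replicates. For the same reason no replicate could be left out. All settings that follow changed 1 choice, and the causes of the changes were not tested. Counts of members under these settings, here and above, have no share over all genes at the same setting beside them. They describe how the calls moved and are not read as results about the members. The members apart between genotypes over all kept cells remained 2 or 3 at homeostasis. After 5-FU they were 0 at a threshold of 2-fold, with equal cluster shares and under the mixture model of the tags, and 1 without removal of extreme cells.

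In LT-HSC-like cells at homeostasis, where 4 members were apart, they were 0 without removal of lineage gene cells and at resolution 2, 1 at 2-fold, with equal cluster shares and under an 80% tag rule (one tag holding that share of a cell's tag counts), and 2 under the mixture model and at a cell minimum 2 times as high. Ratios changed sign there without removal of lineage gene cells (Cd48 0.0069, Cd34 0.11, Flt3 0.28, Procr -0.019) and at resolution 2 (Flt3 0.25). Over all kept cells at homeostasis they did so with equal cluster shares (Ly6a -0.24, Flt3 0.054, Fgd5 -0.17). Ratios near 0 changed sign as well, Ly6a in LT-HSC-like cells at homeostasis (0.0085 at resolution 2) and Fgd5 in those cells (above 0 in 11 of 16 settings, lowest -0.33), in LT-HSC-like cells after 5-FU (14 of 15, lowest -0.043) and over all kept cells after 5-FU (7 of 10, lowest -0.16). After 5-FU, 1 member was apart in these cells. It became 2 with the mean over cells, equal cluster shares, no removal of lineage gene cells or resolution 2, 3 at resolution 0.5 or with no gene left out of the clustering, and 4 with the 80% tag rule, the mixture model, without the 10% of cells with most UMIs, or in the 20% of cells with most LT-HSC marker UMIs.

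Members called higher in LT-HSC-like cells in all pools fell to 0 with the 80% tag rule, where the mean ratios of Procr and Fgd5 were 1.45 and 1.48. Those lower were 1 with that rule, the mixture model, no removal of lineage gene cells, the top 20% by markers, and at 2-fold, while the mean ratios of Cd48, Cd34 and Flt3 were at most -2.43, -0.72 and -0.43 in 13 settings. Slamf1 stayed above 0 and Kit below 0 between genotypes under every setting, in both cell sets and libraries.

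The share with Slamf1 alone was higher in knockout under all 7 alternatives in both libraries. At homeostasis the difference was 2.37 points at 2500 UMIs, 1.95 with 2 UMIs required, 4.68 with the 80% tag rule and 2.85 under the mixture model. After 5-FU it was 11.7 points without thinning, 7.35 with 2 UMIs required and 2.27 under the mixture model. Pairs co-detected above the product in all pools were 14 without thinning. Resolution and naming changes for genotype ratios, and tag and filter changes for class ratios, were added after seeing the data. Genes with few UMIs, such as Cd48 in LT-HSC-like cells after 5-FU, are limited by depth.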

Other observations

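Several members also differed with cell division. Cells with at least 3 UMIs of 8 mitosis genes at 4000 UMIs were set against cells with none. Both sets were taken over whole pools without holding cell class fixed, and the part of class makeup in these ratios was not tested. In wild type and knockout at homeostasis and after 5-FU, in that order, Procr was lower in dividing cells by log2 ratios of -1.38, -1.84, -1.75 and -1.98, Fgd5 by -1.09, -2.15, -1.83 and -2.43, and Ly6a by -1.17, -1.32, -1.16 and -1.01. Flt3 was lower too, at -0.41, -0.26, -0.76 and -1.26, as was Kit, at -0.32, -0.36, -0.57 and -0.63. Cd48 was higher, at 0.47, 0.52, 1.12 and 1.27. Every one of these intervals left out 0. Slamf1 had no common direction, at -0.61, -0.51, 0.64 and -0.29, and neither had Cd34, at -0.067, 0.020, -0.18 and -0.29, with intervals that included 0 at homeostasis.

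Slamf1, Procr and Fgd5 were each found in a minority of LT-HSC-like cells at 4000 UMIs. At least 1 of them had a UMI in 48.6%, 54.2%, 55.7% and 63.5% of LT-HSC-like cells, and all 3 in 9 of 1097, 11 of 1121, 7 of 262 and 11 of 765. Cd48 or Flt3 had a UMI in 41.8% and 30.9% of LT-HSC-like cells at homeostasis and 12.6% and 6.54% after 5-FU.

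Cells without a hashtag call held Sin3b at 29.0 CPM at homeostasis (6283 cells) and 21.7 CPM after 5-FU (3290 cells), nearer to the knockout than to the wild-type pools, and they were put in no group. In them Slamf1 was at 10.8 and 27.2 CPM, Cd48 at 66.1 and 86.9 CPM, Flt3 at 375.2 and 112.0 CPM and Procr at 44.5 and 49.8 CPM. How their omission moves the genotype ratios was not tested.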
